A study of Mus musculus with 9 samples.

Results

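Macrophages can spend arginine in opposing ways, and the 10 genes described here encode the enzymes and a transporter of both routes. They were the rows of the deposited expression tables whose Ensembl identifiers map to Nos2, Arg1, Arg2, Ass1, Asl, Slc7a2, Gch1, Pts, Spr and Odc1, which is 10 of 55655 rows. All 10 reached the level needed for testing, FPKM values of 1 or more in 3 or more of the 6 libraries compared.

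The cells were bone marrow-derived macrophages (BMDMs) of wild type C57BL/6 mice aged 6 to 8 weeks, grown from femur and tibia marrow for 7 days with 10 ng/mL M-CSF, the growth factor that turns marrow precursors into macrophages. M0 macrophages were left unpolarized and received no photobiomodulation (PBM), which is irradiation with low-power near-infrared light. M1 macrophages were given lipopolysaccharide (LPS), a bacterial cell wall component, with interferon-γ (IFN-γ), and M1 + PBM macrophages received the same inducers and PBM. Induction lasted 12 hours in both. Each group had 3 RNA-seq libraries, so n = 3 throughout, and the values were deposited as FPKM, fragment numbers scaled by transcript length and library depth. The study describes the sequencing experiment as independently repeated, and no label ties a library to a given repeat, mouse or culture, so the p-values measure the spread between these libraries, whatever its source. The RNA was from whole cultures, in which fewer cells expressing a gene and less RNA per cell cannot be told apart.

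Nitric oxide synthase 2 (Nos2, also called iNOS) turns arginine into nitric oxide and citrulline, and is the usual marker of M1 macrophages. Argininosuccinate synthase (Ass1) and argininosuccinate lyase (Asl) turn the citrulline back into arginine, and the cationic amino acid transporter Slc7a2 brings arginine in from the medium. The arginases Arg1 (cytosolic) and Arg2 (mitochondrial) split arginine into urea and ornithine, from which ornithine decarboxylase (Odc1) makes putrescine, the first polyamine, and Arg1 is the usual marker of alternatively activated mouse macrophages. Nos2 works only with the cofactor tetrahydrobiopterin, made from GTP by GTP cyclohydrolase (Gch1), 6-pyruvoyltetrahydropterin synthase (Pts) and sepiapterin reductase (Spr) in that order.

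All 6 macrophage markers (Adgre1, Csf1r, Itgam, Cd68, Fcgr1 and Mertk) stood at an FPKM of 14.4 or more in all 9 libraries, and a pair of libraries stood apart in other markers. In M0 replicate 3 the 6 stromal genes summed to an FPKM of 184, against 6.68 and 5.36 in the other M0 libraries, led by Col1a1 at 123. The same library had the highest M0 sum over 6 genes of M1 induction, 47.7 against 12.0 in each of the others, with Cxcl10 at 16.1. In M1 replicate 2 the 16 liver genes summed to 24.4, with 15 of them above 0 and Alb at 9.01, while the other 8 libraries had sums of 1.06 to 3.81 and Alb at 0. Their part in the results below was not tested, and the values of several members are given with and without them.

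**Figure D1:**
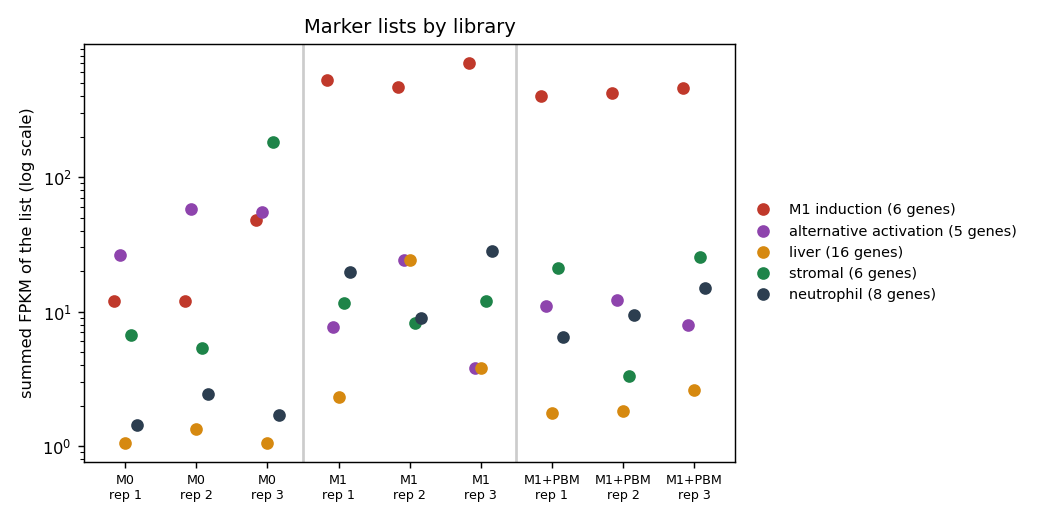
Summed FPKM (log scale) of 5 marker lists in each of the 9 libraries, 1 point per list and library, with the number of genes in the key. The stromal sum of M0 replicate 3 (184) and the liver sum of M1 replicate 2 (24.4) lie apart from the other libraries of their groups, and the M1 induction list sums to at most 47.7 in M0 and at least 401 in the other groups.

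The levels of the members in M0, M1 and M1 + PBM were first set side by side to ask which steps of the pathway accompany polarization. The M0 values came in a separate table, so the group and the table cannot be told apart and no test was run against M0. In M1, 6 of the 10 members (Nos2, Slc7a2, Ass1, Arg2, Arg1 and Gch1) had means at least 2-fold above M0 in FPKM + 1 with no overlap between the libraries, and none was at least 2-fold lower. Over the 13915 rows that reached 1 FPKM in 3 or more of the 9 libraries, 7.81% were higher and 13.7% lower by that rule. The median difference between M1 and M0 on the log2(FPKM + 1) scale was 1.89 over the members and -0.338 over all rows. Median-of-ratios scaling over the 9 libraries moved the median of all rows to 0.042 and that of the members to 2.187, kept the same 6 members higher, and gave 11.7% of all rows higher and 6.93% lower.

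**Figure D2:**
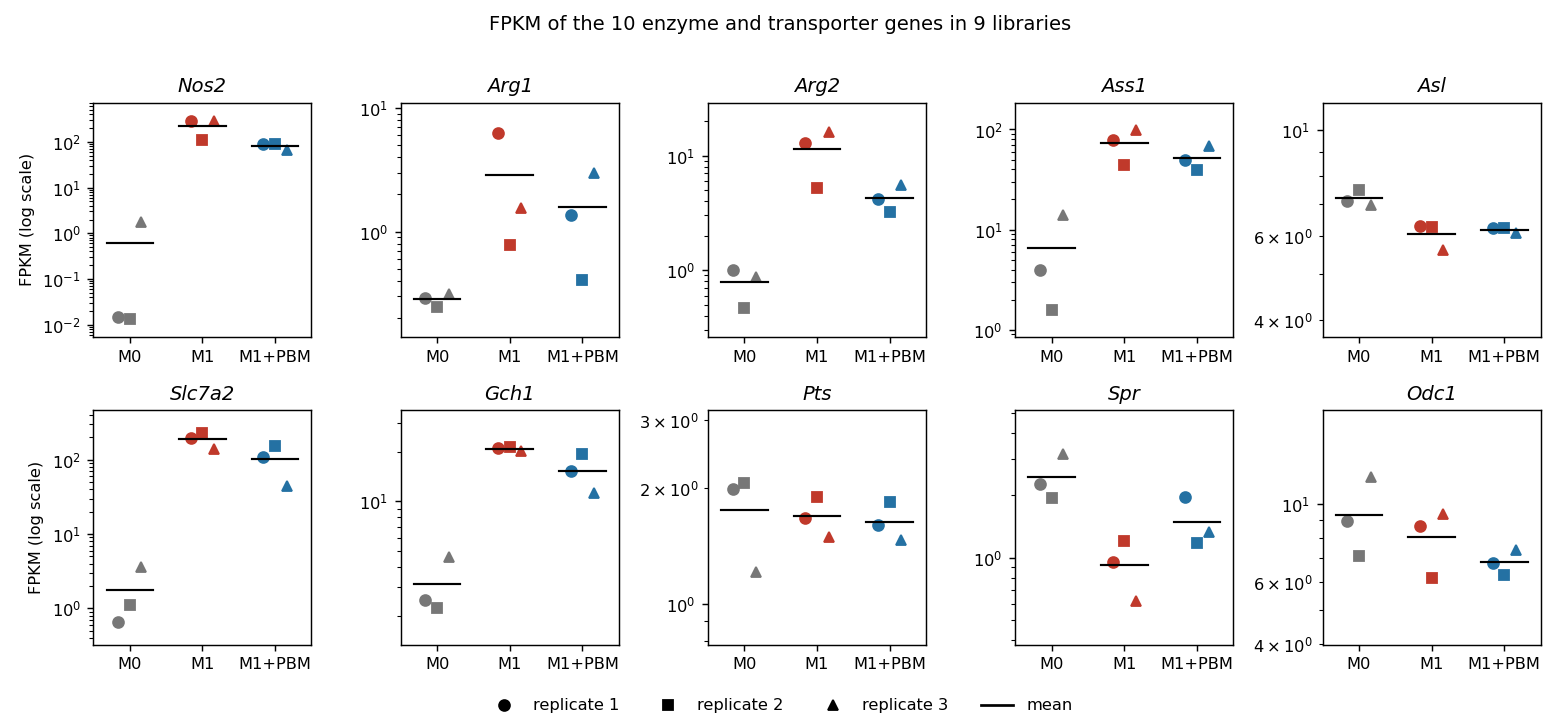
FPKM (log scale, a different range in each panel) of the 10 genes in M0, M1 and M1 + PBM macrophages, 1 symbol per library with its shape giving the replicate number and a line for the mean of 3. Nos2, Slc7a2, Ass1, Arg2, Arg1 and Gch1 lie above M0 in all M1 and all M1 + PBM libraries, and Nos2 and Gch1 also separate M1 from M1 + PBM.

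Nos2 (ENSMUSG00000020826) had FPKM of 0.0147, 0.0133 and 1.79 in M0 replicates 1 to 3. In M1 replicates 1 to 3 it reached 290, 112 and 284. With PBM it stood at 88.1, 88.8 and 65.9. The groups with and without PBM did not overlap, the PBM libraries being the lower, and both groups lay far above M0, where replicate 3 alone had an appreciable signal. The lowest M1 library was 62.6 times the highest M0 library, and the lowest M1 + PBM library 36.8 times. The M1 mean was 377 times the M0 mean, a figure set by M0 replicate 3. In the other M0 libraries at most 1.9 fragments per library are estimated to lie behind the value, and no fold is given against them. Among the 13915 rows Nos2 was at percentiles 0.7, 0.8 and 20.6 of the level in M0, 97.6 to 99.3 in M1 and 95.9 to 97.0 in M1 + PBM.

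The other nitric oxide synthases, Nos1 (neuronal) and Nos3 (endothelial), had FPKM of at most 0.0661 and 0.0439 in any of the 9 libraries. Nos2 was therefore the one synthase of the family above the testing level.

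Slc7a2 (ENSMUSG00000031596) had FPKM of 0.657, 1.11 and 3.55 in M0. In M1 it reached 196, 229 and 138, and with PBM 107, 155 and 44.3. It overlapped between M1 and M1 + PBM through a single library, M1 + PBM replicate 2, which exceeded M1 replicate 3. The M1 mean was 106 times the M0 mean, and 213 times that of M0 replicates 1 and 2. Of the 10 members it had the highest FPKM in M1 replicate 2 and in M1 + PBM replicates 1 and 2.

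Ass1 (ENSMUSG00000076441) stood at FPKM 3.92, 1.57 and 14.1 in M0. Its values were 78.2, 44.1 and 99.8 in M1 and 49.2, 39.1 and 68.4 in M1 + PBM. The M1 and M1 + PBM libraries overlapped, and both groups were above M0 without overlap, by 11.4 and 8.01 times in the means (27.0 and 19.0 times against M0 replicates 1 and 2). Asl (ENSMUSG00000025533), the next enzyme of the same recycling route, was nearly level, at 7.11, 7.50 and 6.96 in M0, 6.30, 6.26 and 5.6 in M1, and 6.24, 6.23 and 6.08 in M1 + PBM. Its M1 and M1 + PBM libraries lay just below those of M0, by 0.22 and 0.19 on the log2(FPKM + 1) scale, and this order turned over with median-of-ratios scaling, to 0.22 and 0.17 above. The ratio of Ass1 to Asl within a library, in FPKM, was 0.551, 0.209 and 2.02 in M0, 12.4, 7.05 and 17.8 in M1 and 7.88, 6.28 and 11.3 in M1 + PBM. Ass1 was below Asl in M0 replicates 1 and 2 and above it in M0 replicate 3 and in all 6 libraries of polarized cells.

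Arg1 (ENSMUSG00000019987) was the lowest member in M0 by its mean, at FPKM 0.292, 0.248 and 0.311. It rested in M1 on values of 6.24, 0.775 and 1.55, and in M1 + PBM on 1.37, 0.405 and 3.0. All 6 were above M0, but the spread within each polarized group was wider than the distance between them. The M1 difference from M0 was 1.32 on the log2(FPKM + 1) scale, 0.73 without M1 replicate 1 and 2.45 with a pseudocount of 0.1 in place of 1. At these levels an estimated 12.4 to 365.7 fragments at most lay behind a value.

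Arg2 (ENSMUSG00000021125) was the more abundant arginase in all 9 libraries, by 1.84 to 10.4 times. It had FPKM of 1.01, 0.468 and 0.878 in M0, 12.9, 5.19 and 16.1 in M1, and 4.15, 3.22 and 5.51 in M1 + PBM. The highest M1 + PBM library exceeded only the lowest M1 library, and M0 lay below both. Arg2 overlaps Vti1b on the opposite strand, a gene with FPKM of up to 20.6, and although the libraries were strand-specific it is not given in the sources used here whether strand was used in the counting.

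Both arginases were thus higher in the M1 libraries than in M0, alongside Nos2. Within a library the ratio of Nos2 to Arg1 in FPKM was 0.0504, 0.0535 and 5.76 in M0, 46.4, 145 and 183 in M1, and 64.4, 219 and 22.0 in M1 + PBM. In M0 replicates 1 and 2 the ratio rests on an estimated 1.9 Nos2 fragments at most, so its size there is not known with any precision. The M1 and M1 + PBM ranges overlapped, although Nos2 itself did not.

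Gch1 (ENSMUSG00000037580), the rate-limiting enzyme of tetrahydrobiopterin synthesis, had FPKM of 2.5, 2.25 and 4.60 in M0. Its M1 values were the tightest of the induced members, at 21.2, 21.4 and 20.4. With PBM they were 15.4, 19.5 and 11.2, all below the M1 libraries and above M0. The M1 mean was 6.74 times and the M1 + PBM mean 4.93 times the M0 mean.

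Pts (ENSMUSG00000032067), the middle enzyme, had overlapping FPKM in the 3 groups, 1.21 to 2.06 in M0, 1.49 to 1.89 in M1 and 1.46 to 1.83 in M1 + PBM. Spr (ENSMUSG00000033735), the last enzyme, had FPKM of 2.26, 1.94 and 3.16 in M0, 0.956, 1.2 and 0.621 in M1, and 1.98, 1.18 and 1.33 in M1 + PBM. Each M1 library was below each M0 library, 2.64-fold in the means, while M1 + PBM overlapped both, and 50.6% of all rows were lower in M1 than in M0 without overlap (25.3% with median-of-ratios scaling, Spr among them). The 3 steps of the route differed in direction, with the first enzyme higher in M1 than in M0, the middle one overlapping M0 and the last lower. With median-of-ratios scaling Pts was above M0 without overlap, as were 31.6% of all rows.

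Odc1 (ENSMUSG00000011179) had overlapping FPKM throughout, 7.09 to 11.9 in M0, 6.16 to 9.38 in M1 and 6.29 to 7.41 in M1 + PBM. It had the highest mean of the 10 members in M0 (9.32 ± 2.43, SD) and the sixth in M1 (8.06 ± 1.68).

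The order of the levels changed in part with polarization, while Ass1 and Gch1 kept ranks 3 and 4 by their means in each group. In M0 the means in FPKM ran from Odc1 through Asl, Ass1, Gch1, Spr, Slc7a2, Pts, Arg2 and Nos2 to Arg1, and only Pts and Arg2 were neighbours whose libraries did not overlap. In M1 Nos2 (229 ± 101, SD) and Slc7a2 (188 ± 45.7) led and overlapped, followed without overlap by Ass1 (74.0 ± 28.1), Gch1 (21.0 ± 0.546) and Arg2 (11.4 ± 5.59). In M1 + PBM Slc7a2 (102 ± 55.3), Nos2 (80.9 ± 13.0) and Ass1 (52.2 ± 14.9) overlapped in a chain at the top, and Gch1 (15.4 ± 4.16) came next without overlap. Summed over the 10 members, FPKM was 24.23 to 48.45 in M0, 427.6 to 622.3 in M1 and 214.6 to 321.3 in M1 + PBM.

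Promoter sequence was at hand from RefSeq (GRCm38.p6) for 5 of the 10 members, Ass1, Gch1, Pts, Spr and Odc1, as 300 bases around the start. The 250 bases before the start are shown for Gch1 and Ass1, the members of these 5 that were higher in M1, with the motif found in capitals. They are an NF-kB motif in Gch1 (chr14:47189414-47189663, minus strand) and an E-box, CACGTG, in Ass1 (chr2:31470020-31470269, plus strand), each written 5′ to 3′ on the strand of the gene.
Gch1: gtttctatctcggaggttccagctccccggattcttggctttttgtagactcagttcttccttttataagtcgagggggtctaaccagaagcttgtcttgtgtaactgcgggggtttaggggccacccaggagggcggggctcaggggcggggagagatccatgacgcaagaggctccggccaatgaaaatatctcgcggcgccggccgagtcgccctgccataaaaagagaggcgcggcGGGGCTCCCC
Ass1: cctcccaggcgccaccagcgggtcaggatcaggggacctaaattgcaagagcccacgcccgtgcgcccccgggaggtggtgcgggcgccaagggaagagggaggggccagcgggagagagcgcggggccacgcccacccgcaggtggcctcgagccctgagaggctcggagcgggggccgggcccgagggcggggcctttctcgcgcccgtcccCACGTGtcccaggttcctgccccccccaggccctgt
The NF-kB motif of Gch1 begins 10 bases before the start, and 8.46% of 32851 RefSeq promoters of the same length hold one on either strand. The E-box of Ass1 begins 36 bases before the start and is held by 7.15%, and it is also read, on both strands, as the hypoxia response core ACGTG, which 19.6% hold. Pts, Spr and Odc1 held none of these, and none of the 5 held the interferon motifs searched on both strands, ISRE (a pair of GAAA runs with 2 bases between them, in 3.44% of promoters) and GAS (TTCNNNGAA, in 8.3%). A match is a description of the letters and was not tied to binding by any measurement here.

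The comparison of M1 + PBM with M1 asks how PBM alters the induced program, and it was tested with limma on log2(FPKM + 1) over 12238 rows. By the thresholds of the study, an unadjusted p of at most 0.05 and a log2 fold change of at least 1 in size, 2 of the 10 members fell, Nos2 and Arg2, and none rose. Over all rows 29 (0.237%) fell and 3 (0.0245%) rose by the same thresholds. The limma fit and the FPKM minimum were chosen here. The study reported many more genes at these thresholds, most of them upregulated, so its calls and these are not like for like. No member passed a Benjamini-Hochberg adjusted p under 0.05 in limma, which 1 row in the whole table did (0.00817%). At an unadjusted p of 0.05 or less alone, 3 members passed, all lower (Nos2, Arg2 and Gch1), against 1.45% of rows lower and 2.99% higher. The median log2 fold change was -0.444 over the members and 0.058 over all rows, and it was below 0 for 8 of 10 members and 34.4% of rows. These values are without rescaling, and signs near 0 depend on it. With median-of-ratios scaling Nos2 moved from -1.38 to -1.46 and Asl from 0.03 to -0.04. The share of rows below 0 was not computed with that scaling, so the distance between the members and all rows may be smaller than it looks.

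Libraries that carry the same replicate number with and without PBM deviated together from their group means in pairs 2 and 3. In pair 1 they did so weakly (r of 0.157). A fit with the replicate number as a block was therefore made beside the first fit. No label states that the numbers are pairs, so the block was taken from these same data. With the block, 3 members were called, Slc7a2 joining Nos2 and Arg2 (0.327% of all rows fell), and 5 passed at an unadjusted p of 0.05 or less, Ass1 and Slc7a2 joining the other 3 (3.24% of rows lower). No member had an adjusted p under 0.05 with the block either, 0.58 being that of these 5.

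Nos2 fell by 1.38 on the log2 scale (SE 0.38, 95% interval -2.29 to -0.46, limma p = 0.00972, adjusted p = 0.90, exact permutation p = 0.1). The same-numbered pairs differed by -1.71, -0.33 and -2.09, so that the second pair showed a small part of the change seen in the others. That pair holds M1 replicate 2, the library with the liver genes and with the lowest Nos2 of the M1 group. Without this library the log2 fold change was -1.83 (SE 0.17, limma adjusted p = 0.31). The exact permutation tests here are two-sided, and 0.1 is the smallest p that 3 against 3 libraries allow.

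Arg2 fell by 1.12 (SE 0.39, 95% interval -2.05 to -0.20, limma p = 0.0248, adjusted p = 0.90, exact permutation p = 0.2), with pairs at -1.43, -0.55 and -1.39. The call was lost without M1 replicate 1 (-0.98), M1 replicate 3 (-0.83), M1 + PBM replicate 2 (-0.97) or M1 + PBM replicate 1 (-1.12, SE 0.47). With the replicate block its SE was 0.20 and the call was kept, and without M1 replicate 2 the value was -1.56 (SE 0.21, limma adjusted p = 0.35). Arg1 differed by -0.43 (SE 0.59, 95% interval -1.86 to 1.00, limma p = 0.491, exact permutation p = 0.6), with pairs at -1.61, -0.34 and 0.65. The interval of Arg1 takes in both the value of Arg2 and a 2-fold higher level, and its sign turned to 0.16 without M1 replicate 1. Leaving out M1 replicate 2 gave -0.86 for Arg1, and leaving out M1 + PBM replicate 2 gave -0.06.

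Slc7a2 differed by -1.01 (SE 0.46, 95% interval -2.11 to 0.08, limma p = 0.0644, exact permutation p = 0.2), and all 3 pairs were lower, by -0.86, -0.56 and -1.62. With the replicate block it fell by the thresholds of the study (SE 0.22, limma adjusted p = 0.58), as it did without M1 + PBM replicate 2 (-1.4, limma adjusted p = 0.60). Without M1 + PBM replicate 3, its lowest library, the value was -0.51. Ass1 differed by -0.46 (SE 0.34, limma p = 0.22, exact permutation p = 0.3), with pairs at -0.66, -0.17 and -0.54. With the replicate block its SE was 0.12 and its limma adjusted p = 0.58. Without M1 replicate 2 it was -0.78 and passed at an unadjusted p of 0.05 or less (SE 0.26, limma adjusted p = 0.53), while leaving out M1 replicate 3 gave -0.20 and leaving out M1 + PBM replicate 2 gave -0.27.

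Gch1 had a log2 fold change of -0.46 (SE 0.19, 95% interval -0.91 to just below 0, limma p = 0.0492, adjusted p = 0.90, exact permutation p = 0.1), with pairs at -0.44, -0.12 and -0.81. Its libraries did not overlap between the groups, which was so for 2 members (Nos2 and Gch1) and for 2.52% of all rows in the lower direction. Its unadjusted p stayed at 0.05 or less when M1 + PBM replicate 2 was left out (-0.64) and not when any of the other 5 libraries was (-0.48 to -0.26, the last without M1 + PBM replicate 3), nor with a pseudocount of 0.1, no minimum FPKM or quantile normalization. Of the other biopterin enzymes Pts differed by -0.03 (95% interval -0.28 to 0.23) and Spr by 0.37 (SE 0.17, 95% interval -0.04 to 0.78, limma p = 0.0694, exact permutation p = 0.2), with Spr higher in pairs 1 and 3. Spr did not pass at an unadjusted p of 0.05 or less with all libraries and did without M1 replicate 2 (0.47, SE 0.18, limma adjusted p = 0.54), and it was 0.24 without M1 + PBM replicate 1 and 0.25 without M1 replicate 3.

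The remaining members are the second enzyme of citrulline recycling and the first of polyamine synthesis. Asl differed by 0.03 (SE 0.087, 95% interval -0.18 to 0.24), a sign that turned with scaling. Odc1 differed by -0.19 (95% interval -0.57 to 0.19, limma p = 0.262, exact permutation p = 0.4). Without M1 replicate 2 it was -0.35 and passed at an unadjusted p of 0.05 or less (SE 0.11, limma adjusted p = 0.53), and without M1 replicate 3 it was -0.09.

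**Figure D3:**
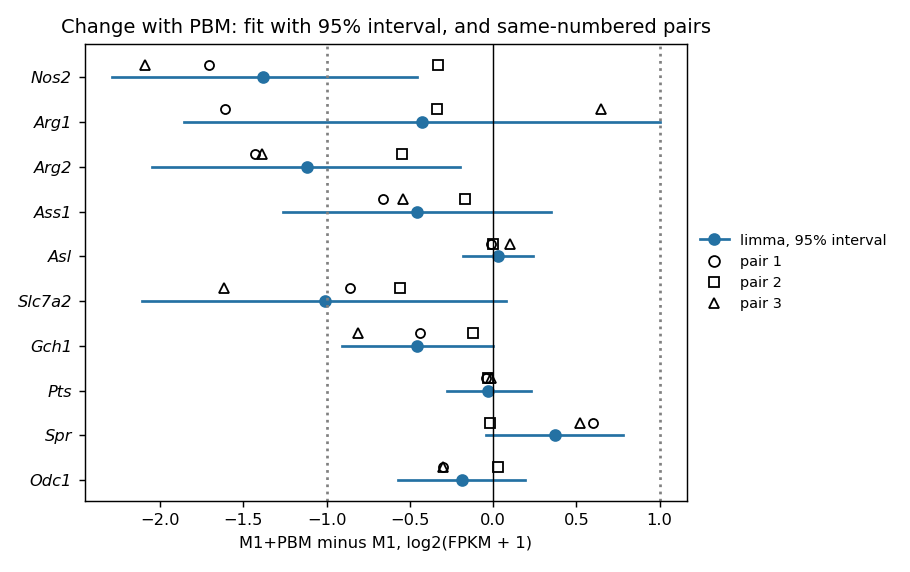
M1 + PBM minus M1 on the log2(FPKM + 1) scale for the 10 genes. Filled points and bars give the limma estimate with its 95% interval, open symbols the 3 same-numbered pairs, and dotted lines a 2-fold change. The intervals of Nos2, Arg2 and Gch1 lie below 0, and the second pair shows the smallest change in size for all genes but Pts.

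In 6 members with a log2 fold change of -0.43 or lower (Nos2, Arg1, Arg2, Ass1, Slc7a2 and Gch1) the second pair had the smallest change in size. The same was so for Asl, Spr (0.60, -0.02 and 0.52) and Odc1 (-0.30, 0.03 and -0.30), and not for Pts. It was thus not particular to the lowered members, and the share over all rows was not computed. M1 replicate 2 had the lowest Nos2, Arg1, Arg2 and Ass1 of the M1 group, and the highest Slc7a2 and Gch1. M1 + PBM replicate 2 had the lowest Arg1, Arg2 and Ass1 of its own group. It had the highest Nos2, Slc7a2 (FPKM 155 against 107 and 44.3) and Gch1 (19.5 against 15.4 and 11.2). For Slc7a2 and Gch1 the small second pair thus goes with a high M1 + PBM library and not with a low M1 library. Arg1, Ass1 and Asl are abundant in liver, and in M1 replicate 2, the library with the liver genes, stood at FPKM 0.775, 44.1 and 6.26. Cps1 and Otc, urea cycle enzymes of hepatocytes, had FPKM of 0.376 and 0.0573 in that library and were listed at 0 in the other 8. What liver RNA adds to the Arg1, Ass1 and Asl values was not tested.

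With PBM the members above M0 in M1 were still above it. In M1 + PBM, 5 members (Nos2, Slc7a2, Ass1, Arg2 and Gch1) were at least 2-fold above M0 in FPKM + 1 without overlap, against 7.13% of all rows. Arg1 was above M0 without overlap, as were 15.9% of rows, by less than 2-fold on that scale. Its M0 level is below the pseudocount of 1, which compresses the difference, and its mean FPKM was 5.61 times that of M0. With a pseudocount of 0.1 it stood 1.79 above M0 on the log2 scale and made the members at least 2-fold higher 6. The M1 and M1 + PBM comparisons share the M0 libraries. For Nos2 the difference from M0 on the log2(FPKM + 1) scale was 7.21 in M1 and 5.84 in M1 + PBM. Slc7a2 stood at 6.20 and 5.18, Ass1 at 3.63 and 3.17, Arg2 at 2.68 and 1.56 and Gch1 at 2.46 and 2.0.

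Another 37 genes of the same pathways were read from a list in 5 groups, of which 22 reached the testing level. None was called by the thresholds of the study in limma, with or without the replicate block. At an unadjusted p of 0.05 or less, 3 were higher with PBM and none was lower, against 2.99% of all rows higher and 1.45% lower, with an adjusted p of 0.90 for each in limma. The median log2 fold change was 0.107 over the 22 and 0.058 over all rows. The count of 3 became 1 with median-of-ratios scaling, without M1 replicate 3 or without M1 + PBM replicate 3, and 0 without M1 + PBM replicate 1. The 3 genes were Paox, a polyamine oxidase (log2 fold change 0.65, SE 0.20, limma p = 0.0158), Nostrin, a nitric oxide synthase trafficking protein (0.37, SE 0.14, limma p = 0.0313), and Amd1, which makes the aminopropyl donor for spermidine and spermine (0.27, SE 0.10, limma p = 0.0321), with an exact permutation p = 0.1 for each. Their M1 and M1 + PBM libraries did not overlap, as in 8.51% of all rows in the higher direction. Amd2, a near copy of Amd1, had FPKM of 1.36 to 2.91, and reads shared between them could not be assigned here. With the block Smox, a spermine oxidase, also passed at an unadjusted p of 0.05 or less, on the lower side (-0.33, SE 0.11, limma adjusted p = 0.58).

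By group, 1 of 3 tested other nitric oxide genes passed at an unadjusted p of 0.05 or less (4.44% of all rows), as did 2 of 9 polyamine genes. None of 4 tested genes of arginine and ornithine transport, 4 of arginine, ornithine and citrulline metabolism or 2 of biopterin metabolism did.

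Against M0, of 25 genes of the wider list that were kept, 1 was at least 2-fold higher in M1 in FPKM + 1 without overlap and 8 were at least 2-fold lower, against 7.81% and 13.7% of all rows. The median difference was -0.516 on the log2(FPKM + 1) scale, where all rows had -0.338. With median-of-ratios scaling 3 were higher and 5 lower (11.7% and 6.93% of all rows), at a median of -0.151 (0.042 over all rows). The higher gene was Slc3a2, the heavy chain that amino acid exchangers share, at 57.0 to 70.4 in M0 and 122 to 154 in M1. Its partner Slc7a7, an arginine exchanger, was also above M0 without overlap, by 0.71, as were 15.6% of all rows. On the lower side Nostrin had FPKM of 8.45 to 11.5 in M0 and 0.868 to 1.44 in M1 (-2.32). Gamt, which completes creatine synthesis, differed by -1.67 and Ddah2, of the family that removes methylated arginines, by -1.60. Both biopterin genes kept (Qdpr and Pcbd2) were below M0 without overlap, as were 6 of 10 polyamine genes and 50.6% of all rows, and with median-of-ratios scaling Qdpr overlapped M0 and 4 of 10 polyamine genes and 25.3% of all rows were below it.

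**Figure D4:**
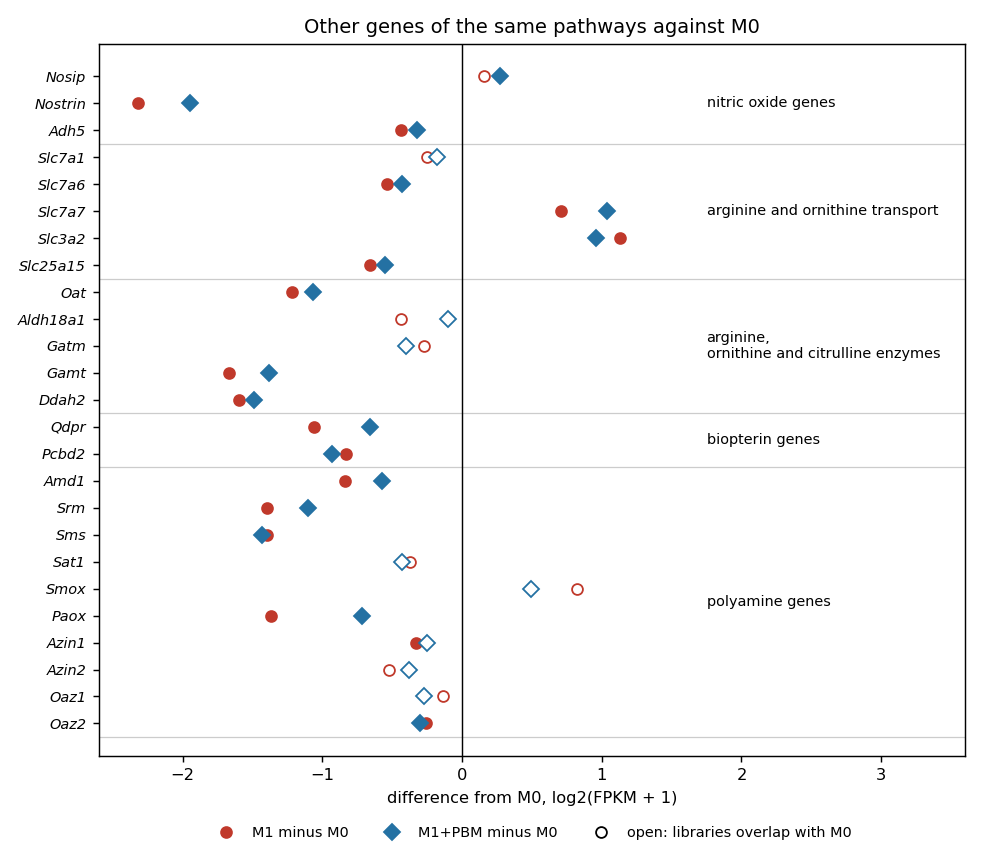
Difference from M0 on the log2(FPKM + 1) scale for the 25 other genes of the same pathways, M1 as circles and M1 + PBM as diamonds, filled where the libraries do not overlap with those of M0. Slc3a2 (1.13 in M1) and Slc7a7 (0.71 in M1) lie to the right of 0, and Nostrin (-2.32 in M1), Gamt and Ddah2 farthest to the left.

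Over the 6 M1 and M1 + PBM libraries the rows most like Nos2 in log2(FPKM + 1) were Npepps (Pearson r = 0.992), Ch25h (0.989), Ier3 (0.984), Ubb (0.981) and Tent5a (0.980). Ch25h, cholesterol 25-hydroxylase, had FPKM of 68.3, 22.4 and 91.4 in M1 and 18.7, 16.3 and 13.0 in M1 + PBM, with M1 replicate 2 low as for Nos2. Among the members Arg2 was closest to Nos2 (r = 0.91) and Spr farthest (-0.76). The rows most like Arg1 were Gm20604 (0.985), Col18a1 (0.980), Glipr1 (0.980), Psmd11 (0.978) and Unc5b (0.977), each highest in M1 replicate 1. These are descriptions over 6 points that share 2 conditions and 3 replicate numbers, picked as the highest of 12238 rows.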

How the data were processed

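Total RNA of BMDMs was sequenced in 9 strand-specific libraries. The authors deposited FPKM values in 2 tables of 55655 rows, 1 for M0 and 1 for M1 and M1 + PBM. The methods name Cufflinks, and the submitters' processing notes name mm9 and Bowtie 0.12.2 without their roles, while 320 row names have the MSTRG form that StringTie gives, so the tool behind the FPKM values is uncertain. The reference at hand was of another build and was used for symbols (55154 rows), transcript lengths, promoters and which genes overlap. No coordinates of the deposited rows are given. The genes and lists were chosen with earlier results of these data known.

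Steps in the FPKM values, searched within a preset range of depths, put depth at 30700000 to 42080000 fragments per library. Depths outside that range were not tried. Between 22.5% and 24.3% of low values were whole (10% if spread evenly, tolerance 0.05), so no reads were recovered and no count test was run. For single values, fragments are upper estimates from the longest transcript at the estimated depth, and would be too low if the true depth were higher.

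The effect of PBM in M1 cells was tested by limma 3.58.1 in R 4.3.3 (eBayes with a trend) on log2(FPKM + 1), for rows reaching 1 FPKM in 3 or more of 6 libraries, after tests on simulated data. The M0 libraries entered no test. The deviations of M1 and M1 + PBM libraries from their group means correlated across genes with r of 0.157, 0.469 and 0.462 for the same number and -0.491 to 0.0328 for different numbers. On this ground the numbers were taken as pairs, which no label states. Deviations from a group mean cancel out within the group, so the low values for different numbers follow in part from the others and are not separate support. Other settings were the replicate block, quantile normalization, median-of-ratios scaling, eBayes with no trend, no minimum FPKM, a pseudocount of 0.1, FPKM rescaled to the same sum (against M0) and leaving out each library.

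Named genes were the 10 members, Nos1, Nos3, wider-list genes at an unadjusted p of at most 0.05 or among the 3 largest M1 differences from M0 in each direction without overlap (2 were higher), the 5 rows most like Nos2 and the 5 most like Arg1, the macrophage markers and the top gene of each other marker list. The others are named as copies, overlapping genes or parts of a count, chosen after their values were seen. One item of the wider list is not reported here.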

Additional observations from a re-analysis of the deposited data

How the results depend on the processing

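The calls rest on unadjusted p-values over 3 libraries a group, and FPKM carries no exact counts, so what depth adds to their error is not known. With a pseudocount of 0.1, 75 rows of the whole table were called in place of 32, and Spr became the 1 member at least 2-fold lower in M1 than in M0. With median-of-ratios scaling 1 gene of the wider list had an unadjusted p of at most 0.05 in place of 3, and Asl turned to -0.04 (-0.03 with quantile normalization). With the replicate block 5 members had an unadjusted p of at most 0.05 in place of 3, Slc7a2 was called, and no other call among the members changed. The cause of these changes was not tested.

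Leaving out each library in turn, 1 to 2 members were called and 1 to 5 had an unadjusted p of at most 0.05, while 27 to 89 rows were called in all. In the wider list 0 to 4 genes had an unadjusted p of at most 0.05. Members at least 2-fold higher than M0 without overlap numbered 5 to 6 in M1 and in M1 + PBM. The log2 fold change of Arg1 ran from -0.86 to 0.16 (0.16 without M1 replicate 1), of Pts from -0.08 to 0.03 (0.03 without M1 replicate 2, 0.02 without M1 + PBM replicate 3) and of Asl from -0.02 to 0.05 (-0.02 without M1 replicate 3). That of Nos2 kept its sign and its call in each, at -1.83 to -1.14.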

Other observations

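Beside the nitric oxide and arginine genes, the M1 and alternative activation markers were read in the same libraries. The 5 genes of alternative activation summed to an FPKM of 26.5 to 57.8 in M0, 3.78 to 24.3 in M1 and 7.94 to 12.2 in M1 + PBM, led by Mrc1, the mannose receptor, at up to 57.1. In M1 replicate 2 the sum of 24.3 included Chil3 at 9.69, which was at most 0.0502 in the other 8 libraries. The 8 neutrophil genes, led by S100a8 at up to 27.2, summed to 1.44 to 2.44 in M0, 8.94 to 28.1 in M1 and 6.44 to 15.0 in M1 + PBM. These sums were mostly S100a8, with Camp at up to 2.80. S100a9 and Ly6g were at 0 in all 9 libraries, and Mpo, Elane, Ltf and Ngp at 0.139 or less, so the list did not rise as a whole. The highest lymphoid gene was Cd79a at 0.481 and the highest erythroid gene Alas2 at 0.977.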
